A study of Schmidtea mediterranea with 15 samples.

Results

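Among the transcripts of trunk fragments of the planarian flatworm Schmidtea mediterranea, 57 of 92053 sequence records were abundant at day 0, scarce in whole juvenile animals, and lower by day 7 of regeneration while still above 50% of their day 0 level at day 3. They were chosen by their mean CPM (counts per 1000000 of a library's total) in each group: at least 50 CPM at day 0, in juveniles at most 25% of day 0, at day 7 at most 50%, and at day 3 more than 50%. That choice used the levels at days 0, 3 and 7 and in juveniles, and comparisons among those groups are described here without a test. Only the day 5 libraries played no part in it. Every test below sets them against a group that the choice used, so 1 side of each test is not independent of the choice. The choice was limited to the 91522 records with identifiers of 1 transcriptome assembly project (GDAG), which the files do not pair with gene names. The identifiers of the 2 most abundant of the 57 are given, and the others are named by their rank in mean CPM at day 0, from 1 to 57.

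The samples were poly(A) RNA libraries from animals of the sexual S2F2 biotype, in 5 groups of 3. They comprised trunk fragments at day 0, regenerating trunk fragments at days 3, 5 and 7, and whole juvenile animals. The labels give no genetic change or treatment in any group, and do not say whether a library came from 1 animal or a pool, how old the animals were or whether those cut were sexually mature. If replicates were not separate animals or cultures, p-values reflect only how these libraries vary among themselves, possibly for technical reasons. Juveniles differed from day 0 fragments in stage and in body part at once, and these cannot be told apart here. Because records could not be named, neither the labelled tissue nor other cell types could be checked against marker genes.

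Planarians replace lost parts from a population of dividing stem cells and remodel what remains of the old body. Animals of the sexual strain are hermaphrodites that build testes, ovaries, yolk glands and copulatory organs as they mature. Juveniles have not yet formed the mature organs, and these organs are known to regress after amputation or starvation. No record described below could be assigned to an organ, a cell type or a protein.

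Libraries held 20338464 to 59034917 counts. Libraries of 1 group could stand apart on the first principal component of all 46736 tested records, which carried 66.6% of the variance. Day 0 replicate 3 scored -178, against -105 and -106 for the other day 0 libraries. Day 3 replicate 3 scored -95.3, against -11.4 and -16.1, and the day 7 libraries scored 51.5, 123 and 1.34. The effect of leaving out such libraries on the main counts is given beside them or in the last section, on the processing.

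Of 3112 GDAG records at 50 CPM or more at day 0, 226 were also at 25% or less in juveniles, and 214 of these were at 50% or less at day 7. The 57 records are those of the 214 that kept over 50% of their day 0 level at day 3, and the other 157 were at 50% or less by then. Of the 531 records with other identifiers, 0 met every condition on CPM and 7 met all but that on day 3. The line at day 3 ran through a continuum, with 50.1% of day 0 for the nearest record inside and 49.97% for the nearest outside. At day 7 it ran through a gap, since the highest of the 57 was at 35.3% of day 0 and the nearest record that failed only there was at 269%. The nearest records inside and outside were at 23.4% and 26.8% of day 0 in juveniles, and at 50.02 and 49.84 CPM at day 0. Membership near the day 3 line depended on single libraries. Leaving out day 3 replicate 2 gave 105 records, 55 of them among the 57. Omitting day 3 replicate 1 gave 99, with 50 shared, and omitting day 0 replicate 3 gave 90, with 40 shared.

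The means of the 57 records stepped down from one time point to the next. Mean CPM was lower at day 3 than at day 0, lower again at day 5 and lower again at day 7 in 57 of 57 records. The same order held for 393 of the 3112 abundant GDAG records (12.6%) and for 89 of the 157 at 50% or less by day 3. The median record was at 64.1% of its day 0 level at day 3, 45.4% at day 5, 21.4% at day 7 and 0.343% in juveniles. Single records ranged between 50.1% and 87.4% of day 0 after 3 days, between 28.8% and 64.9% after 5 days, and between 9.32% and 35.3% after 7 days. All 57 means were already lower at day 3 than at day 0, and at least 9.32% of the day 0 level was left at day 7. These levels chose the records: a high day 0 mean was required, which favours a lower mean at day 3. A low day 7 mean was required as well, which favours a fall from day 5. By day 5, 36 records were at 50% of day 0 or less, as were 192 of the 3112 abundant GDAG records (6.17%). Among the records chosen with day 0 replicate 3 omitted it was 22 of 90. The figures were 75 of 99 with day 3 replicate 1 omitted, and 84 of 105 with day 3 replicate 2 omitted. In bulk libraries such as these, fewer cells of a type and less RNA per cell cannot be told apart.

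**Figure D1:**
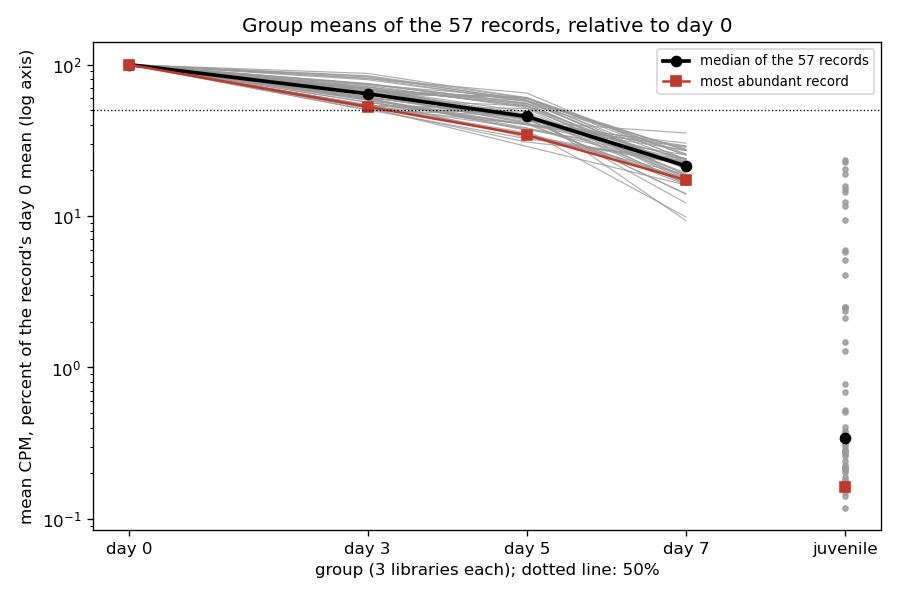
Mean CPM of each of the 57 records as a percentage of its own day 0 mean (log axis) at days 0, 3, 5 and 7 and, set apart on the right, in juveniles, with 3 libraries per group. Grey lines and points are single records, black is their median and red the most abundant record. The lines lie between 28.8% and 64.9% at day 5 and between 9.32% and 35.3% at day 7, while the juvenile points spread from 0.118% to 23.4%.

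Together the 57 records made up 2.85% ± 0.610 of all reads counted in day 0 libraries (SD, n = 3 in this and the following shares). Their share averaged 1.60% ± 0.252 at day 3, 1.07% ± 0.216 at day 5 and 0.525% ± 0.308 at day 7, and 0.0220% ± 0.00169 in juveniles. Most of this came from 1 record, which held 68.6% of their counts at day 0 and 64.4% at day 7, but 14.5% in juveniles. The other 56 summed to 0.897% ± 0.146, 0.573% ± 0.0745, 0.401% ± 0.0396 and 0.187% ± 0.0408 at days 0, 3, 5 and 7, and to 0.0188% ± 0.000760 in juveniles. The summed share of the 56 did not overlap between any pair of groups that follow each other in this order.

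The most abundant of the 57, GDAG01027988.1, had 19537, 24200 and 14936 CPM in the 3 day 0 libraries, or 1.96% ± 0.463 of all counts. Its values were 11867, 7877 and 11157 CPM at day 3, 8557, 4904 and 6624 at day 5, and 6425, 1403 and 2321 at day 7. Juvenile libraries had 39.8, 21.0 and 34.8 CPM. Day 7 replicate 1 lay within the range of the day 5 libraries, and the other day 7 libraries lay below all of them. At day 5 the log2 fold change against day 0 was -1.67 with an SE of 0.51, which missed the threshold (adjusted p = 0.075 by edgeR). It passed with DESeq2 (adjusted p = 0.0036), without day 7 replicate 1 (adjusted p = 0.017) and without day 7 replicate 2 (adjusted p = 0.046), in a range of 0.0036 to 0.23 over 21 alternatives. Neither of these libraries belongs to the groups compared, but all libraries enter the estimate of the spread.

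**Figure D2:**
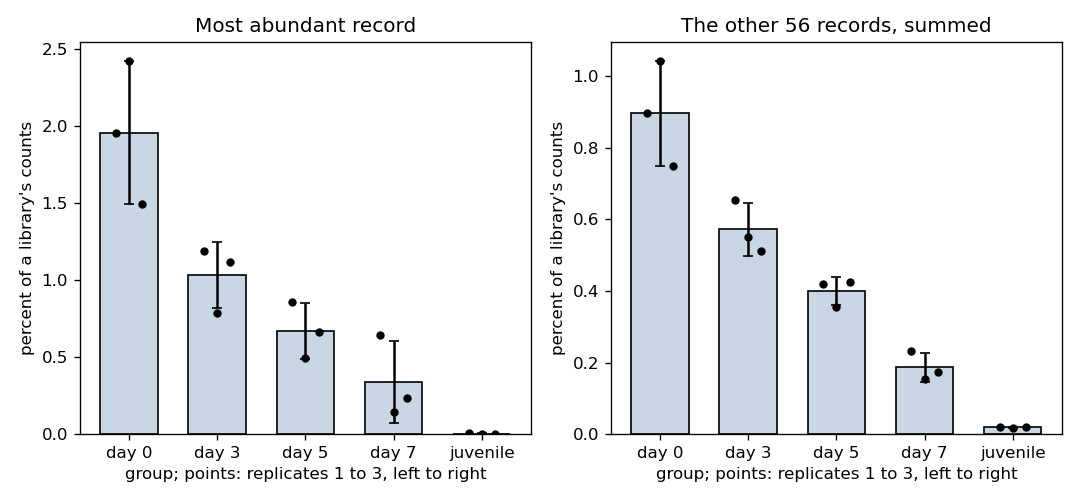
Percentage of each library's counts taken by the most abundant record (left) and by the other 56 records summed (right), for days 0, 3, 5 and 7 and juveniles. Bars are means, error bars SD and points the 3 libraries. The share of the 56 steps down from 0.897% to 0.573%, 0.401% and 0.187% over the 4 days, and the most abundant record varies most in relative terms at day 7.

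Next in abundance, GDAG01075213.1, had 1039, 1230 and 500 CPM at day 0, 587, 409 and 445 at day 3, 353, 179 and 266 at day 5, and 299, 70.6 and 73.9 at day 7. In juveniles it had 1.83, 1.01 and 1.34 CPM. Its day 5 mean was 28.8% of day 0, the lowest of the 57. Every day 5 library lay below every day 0 library, whereas day 3 overlapped day 0 and day 7 overlapped day 5. Against day 0 the log2 fold change at day 5 was -1.92, with an SE of 0.58 and an adjusted p of 0.071 by edgeR. Without day 7 replicate 1 the adjusted p was 0.014, and with DESeq2 it was 0.003, in a range of 0.003 to 0.22 over 21 alternatives.

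The test of day 5 against day 0 addresses how much had been lost at the time point that the choice of records left out. By edgeR, 36 of 57 records were lower at day 5, where 5.64% of all tested records were called lower, and all 57 had enough counts to be tested. Log2 fold changes ran from -1.92 to -0.76 with a median of -1.28, against -0.02 over all records. Day 5 and day 0 libraries did not overlap for 54 of 57, beside 10.3% of all records. The day 0 side was chosen to be high, so these counts are not independent of the choice. Fewer passed when 1 of 3 libraries was omitted: 17 for day 5 replicate 2, 21 for day 5 replicate 3 and 21 for day 0 replicate 2. Over all records these omissions called 1483 of 50653, 1585 of 49131 and 2239 of 50639 lower, against 2638 of 46736 with all libraries. With no filter on low counts 23 passed, beside 1823 of 91773 records. Other alternatives gave more. The count was 47 when day 7 replicate 1 was omitted (2066 of 49162 over all records) and 54 with DESeq2 (3096 of 46736).

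Against day 3, day 5 levels were lower in mean for 57 of 57 records, beside 1379 of the 3112 abundant GDAG records (44.3%). EdgeR called 0 of the 57, where 0.00214% of all records were called lower. An unadjusted p under 0.05 was reached by 20 of 57, beside 3.77% of all records. DESeq2 called 2 of the 57, and 35 of 46736 over all records. Log2 fold changes lay between -0.85 and -0.08 with a median of -0.51. Libraries of the 2 days did not overlap for 33 of 57 records, beside 7.10% of all. The day 3 side was chosen to be above 50% of day 0, which favours a later fall. Omitting day 3 replicate 2 gave 2 calls, beside 5 of 50561 over all records. Fitting the 2 groups alone gave 1, which was the only 1 of 43709 records called lower. Omitting the 3 libraries that stood apart in their groups (replicate 3 of days 0 and 3 and replicate 2 of day 7) gave 3, beside 111 of 48382 records.

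From day 5 to day 7 more of the records passed, a difference between the 2 steps that was itself not tested. By edgeR, day 7 fragments were called lower for 28 of 57 records, where 0.520% of all records were called lower. An unadjusted p under 0.05 was reached by 40, beside 8.28% of all records, and the median log2 fold change was -1.23, in a range of -2.39 to -0.25. Libraries did not overlap for 37 of 57, beside 14.3% of all. The day 7 side was chosen to be low. This test shares the day 5 libraries with the tests before it. With day 7 replicate 2 omitted, 19 of the 57 were called lower, beside 148 of 49135 records, and omissions of single libraries gave 19 to 31. When the 2 groups were fitted alone the count was 8, while over all records 505 of 45258 were called lower, against 243 of 46736 with all libraries.

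**Figure D3:**
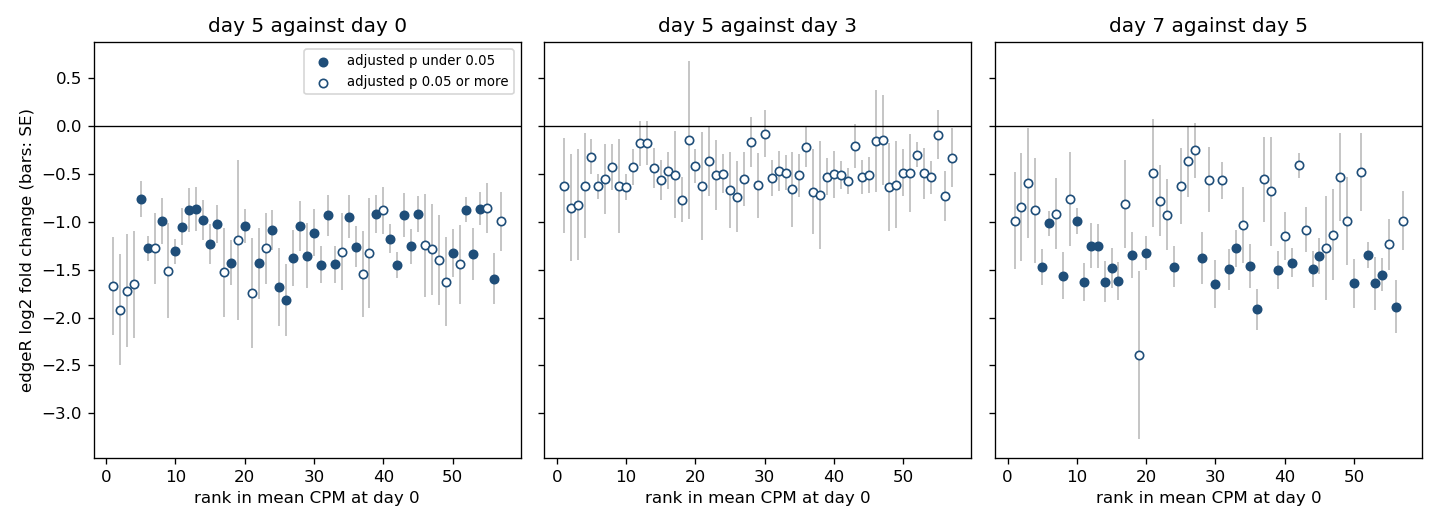
EdgeR log2 fold changes of the 57 records for day 5 against day 0, day 5 against day 3 and day 7 against day 5, with bars of 1 SE, in order of rank in mean CPM at day 0. Filled points passed an adjusted p of 0.05 and open points did not. There are 36 filled points in the first panel, 0 in the second and 28 in the third, and every point lies below 0.

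The record of rank 6 varied little between replicates at days 0, 5 and 7. Its day 3 libraries differed 1.42-fold, against a median of 1.37-fold over the 57. It had 446, 501 and 443 CPM at day 0, 360, 254 and 356 at day 3, 192, 208 and 230 at day 5, 92.0, 99.6 and 120 at day 7, and 1.28, 1.22 and 1.34 in juveniles. No group overlapped the next. At day 5 it was 2.42-fold below day 0 (log2 fold change -1.28, SE 0.13, adjusted p = 9.4e-05 by edgeR), and day 7 was 2.02-fold below day 5 (log2 fold change -1.02, SE 0.13, adjusted p = 0.0029). Both calls held in all 21 alternatives. From day 3 to day 5 the log2 fold change was -0.63 (SE 0.13, adjusted p = 0.28), and without day 3 replicate 2 the adjusted p was 0.0038, the lowest of a range up to 0.95.

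The record of rank 5 kept the largest part of its level at day 5, 64.9% of day 0, and then fell steeply. Its values were 414, 537 and 476 CPM at day 0, 423, 426 and 303 at day 3, 317, 287 and 322 at day 5, 82.3, 118 and 134 at day 7, and 3.34, 2.78 and 3.68 in juveniles. Days 3 and 5 overlapped, and every day 7 library lay below every day 5 library. Day 7 was 2.77-fold below day 5 (log2 fold change -1.47, SE 0.19, adjusted p = 0.0053 by edgeR), and the adjusted p was 0.052 when the 2 groups were fitted alone, the highest of 21 alternatives.

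Rank 36 fell by day 3 and again between days 5 and 7. It had 60.9, 90.3 and 82.4 CPM at day 0, 38.4, 48.3 and 38.3 at day 3, 24.0, 36.5 and 47.8 at day 5, 9.66, 8.87 and 9.92 at day 7, and 1.75, 1.83 and 1.95 in juveniles. Every day 3 library lay below every day 0 library, with a mean at 53.6% of day 0. Day 5 libraries overlapped those of day 3, and the day 7 libraries lay close together below both. Against day 0 the log2 fold change at day 5 was -1.26 (SE 0.21, adjusted p = 0.0039 by edgeR, up to 0.096 over 21 alternatives). Day 7 was 3.77-fold below day 5 (log2 fold change -1.91, SE 0.22, adjusted p = 0.0027 by edgeR), and the adjusted p was 0.062 when the 2 groups were fitted alone, the highest of 21 alternatives.

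The records differed in which library of a group was highest. This order is not independent of the choice, since each library enters the group means that chose the records. With day 0 replicate 3 omitted, 40 of the 57 were chosen again. Day 7 replicate 1 was the highest of its group for 21 of the 57, the lowest for 30 and in the middle for 6. In all 21 of the first kind, day 0 replicate 3 was the lowest day 0 library, which held for 3 of the 30 of the second kind. Over the 3112 GDAG records at 50 CPM or more at day 0, the corresponding shares were 59.7% of 529 and 53.0% of 1599. Among the 157 records at 50% or less by day 3, the corresponding counts were 28 of 34 and 4 of 10. These kinds were sorted after their values had been seen and carry no test.

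**Figure D4:**
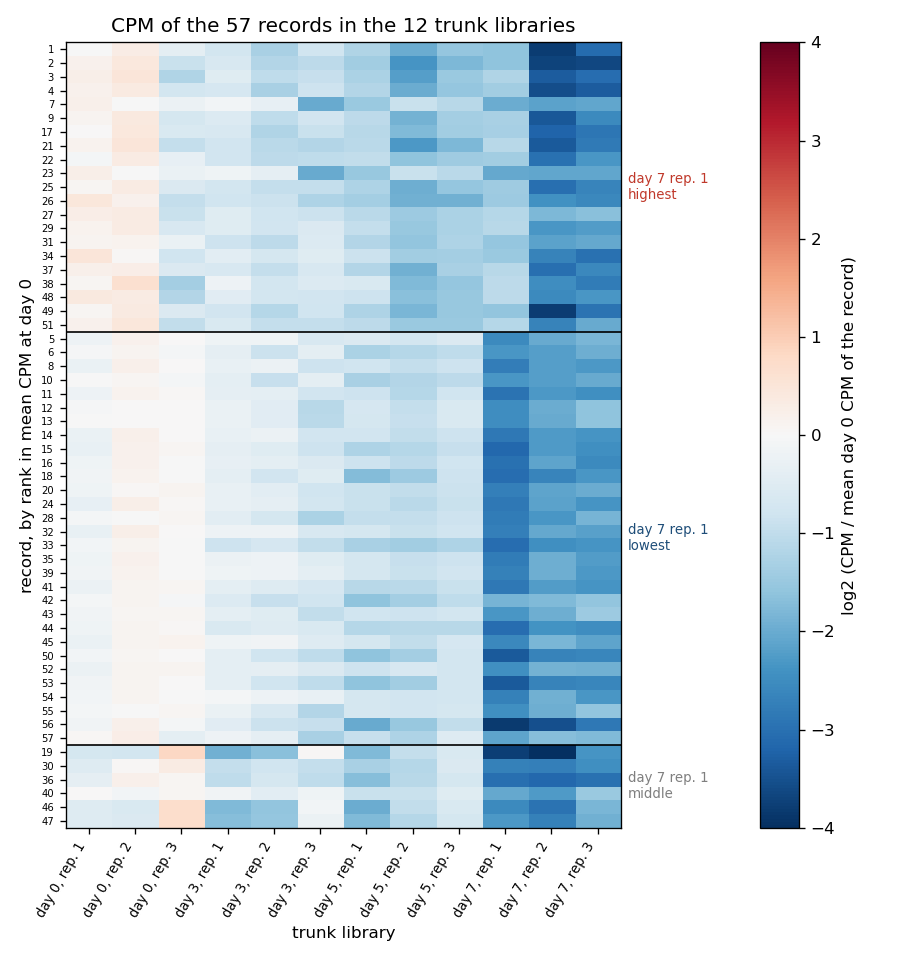
Log2 ratio of the CPM of each of the 57 records to its day 0 mean in the 12 trunk libraries, with records in rows by rank in mean CPM at day 0 and libraries in columns. Rows are in 3 blocks by the position of day 7 replicate 1 among the day 7 libraries: 21 records where it was highest, 30 where it was lowest and 6 where it was in the middle. Blue is below and red above the day 0 mean.

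Ranks 1 to 4 belonged to the 21 records with day 7 replicate 1 on top. The median record of this kind was at 38.2% of its day 0 mean in day 7 replicate 1, and at 12.6% and 16.7% in replicates 2 and 3. Its day 5 level was 38.2% of day 0, and its day 7 mean was 62.7% of day 5. For the step from day 5 to day 7, edgeR called 0 of the 21, beside 0.520% of all records. An unadjusted p under 0.05 was reached by 4, beside 8.28% of all records. The day 7 values that sorted the records also enter this test.

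The 21 records together took 0.801%, 0.195% and 0.295% of the counts in the 3 day 7 libraries, and the 30 records with day 7 replicate 1 at the bottom took 0.0664%, 0.0938% and 0.0998%. The median of the 30 was at 14.8%, 22.9% and 20.9% of the day 0 mean in the 3 day 7 libraries, at 53.7% of day 0 at day 5 and at 36.7% of day 5 at day 7. They include ranks 5, 6, 8 and 10, and 26 of the 28 records called lower at day 7 than at day 5. Over all records 0.520% were called lower. The day 7 values that sorted the 30 also enter this test, so the count is not independent of the sorting. Juvenile levels were at 1% of day 0 or less in 26 of the 30, and in 9 of the 21.

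Rank 7 showed another departure. It had 531, 458 and 390 CPM at day 0, 429, 367 and 114 at day 3, 165, 246 and 215 at day 5, 117, 104 and 108 at day 7, and 1.59, 1.27 and 1.30 in juveniles. Day 3 replicate 3 lay below all day 5 libraries, while the day 7 libraries lay within 1.12-fold of each other. Against day 0, its log2 fold change at day 5 was -1.28, with an SE of 0.38 and an adjusted p of 0.065 by edgeR. Without day 3 replicate 3 the adjusted p was 0.00025, in a range up to 0.19. For day 7 against day 5 the adjusted p by edgeR was 0.31, and 0.01 without that library, in a range up to 0.57. Rank 23 kept a constant ratio to rank 7 within 10% in all 12 trunk libraries.

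Rank 19 had the widest spread at day 7. Its values were 91.1, 90.7 and 267 CPM at day 0, 39.5, 46.8 and 155 at day 3, 43.6, 78.0 and 98.7 at day 5, 11.0, 1.94 and 28.9 at day 7, and 1.75, 1.35 and 2.71 in juveniles. Replicate 3 was the highest library at each of the 4 trunk time points, and the day 7 libraries differed 14.9-fold. The edgeR log2 fold change of day 5 against day 3 was -0.15 with an SE of 0.83, and its sign changed without day 3 replicate 3 (0.75) or day 5 replicate 1 (0.11). That of day 7 against day 5 was -2.39 with an SE of 0.88 and an adjusted p of 0.30, and DESeq2 gave 0.038, in a range of 0.030 to 0.53 over 21 alternatives.

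Rank 28, like rank 19, was among the 2 records at 100 CPM or more at day 0 with the highest day 5 level relative to day 3, at 89.9% and 91.2%. It had 95.6, 98.8 and 106 CPM at day 0, 74.9, 61.7 and 41.7 at day 3, 51.5, 52.1 and 56.8 at day 5, 14.5, 19.9 and 27.4 at day 7, and 0.233, 0.185 and 0.614 in juveniles, where it had 30 counts in all. Day 5 values lay inside the range of day 3, and day 7 lay below both. At day 7 it was 2.60-fold below day 5 (log2 fold change -1.38, SE 0.27), just past the threshold with an adjusted p of 0.0497 by edgeR, in a range of 6.4e-05 to 0.21 over 21 alternatives. Omitting any 1 library ended this call, except day 3 replicates 1 and 3, day 7 replicate 3 and juvenile replicate 3.

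**Figure D5:**
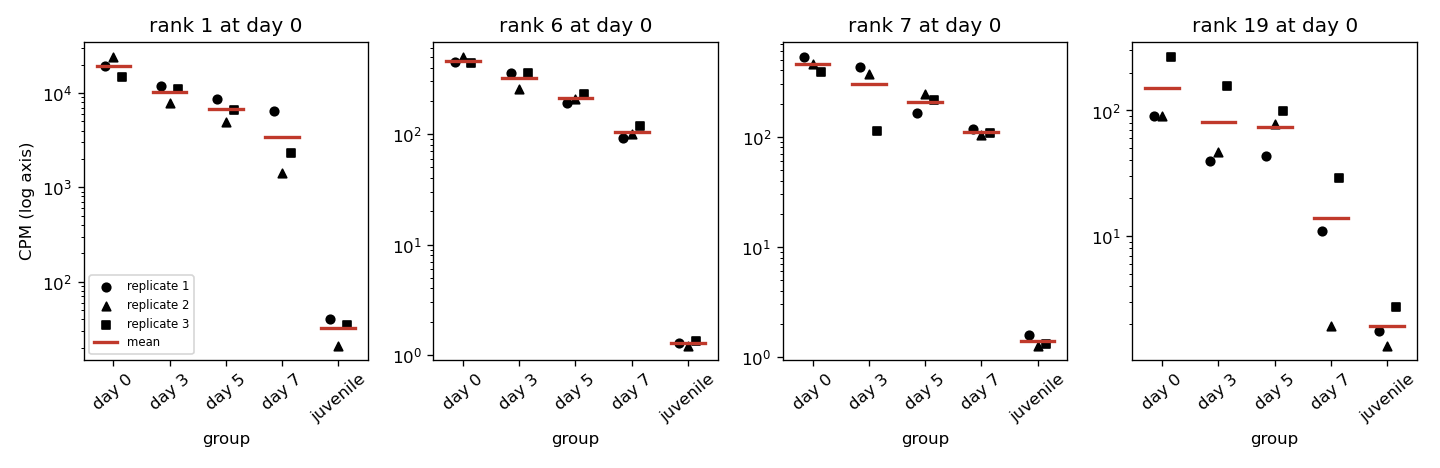
CPM (log axis) of the records of rank 1, 6, 7 and 19 in each library by group; symbols mark replicate numbers and red lines group means. Rank 6 steps down with little spread except at day 3. Rank 1 has a high day 7 replicate 1 (6425 against 1403 and 2321 CPM), rank 7 a low day 3 replicate 3 (114 CPM) and rank 19 a high replicate 3 at all 4 trunk time points.

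Differences between replicates that many records of the table share were summarised by a principal component. The first principal component of deviations from group means carried 43.1% of their variance over the 12 trunk libraries. Correlation with it, a description over these 12 libraries with no test, was 0.96 for rank 19, 0.92 for rank 46 and 0.91 for rank 47, and these were the 3 records of the 57 at 0.8 or above. The median was -0.17 over the 57 and -0.23 over the 3112 abundant GDAG records. Among the 157 records at 50% or less by day 3, the median was 0.96 and 108 were at 0.8 or above. Day 7 libraries differed 2-fold or more for 19 of the 57, against 139 of the 157 and 166 of the 3112 (5.33%). The differences between these sets were not tested.

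The day 5 libraries chose neither the 57 nor the 157 records, and the levels of both sets there are given side by side without a test. For the 157 records the median day 5 level was 97.0% of day 3, against 70.4% for the 57, and 89 of 157 had a lower mean at day 5 than at day 3, against 57 of 57. A day 3 level above 50% of day 0 was required of the 57 and one of 50% or less of the 157, which by itself favours this contrast. From day 5 to day 7 the median was 42.5% for the 57 and 24.2% for the 157. The median over all 3112 abundant GDAG records was 101% of day 3 at day 5 and 98.9% of day 5 at day 7.

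The test of day 5 against juveniles addresses how far the records still stood from the level of small intact animals. EdgeR called levels higher at day 5 for 55 of 57 records, where 11.9% of all records were called higher, and libraries did not overlap for 57 of 57, beside 13.8% of all. The juvenile side was chosen to be low. Ranks 26 and 51, named because they were the exceptions, had adjusted p-values of 0.054 and 0.068. The count ranged from 51 to 57 when single libraries were left out, while over all records 2817 to 6515 were called higher.

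At day 7 the mean was still above that of juveniles for all 57 records, and at least 10-fold above for 37, with ratios of 1.31 to 151. All 157 records at 50% or less by day 3 were also above juveniles, 53 of them at least 10-fold. The shares of the 3112 abundant GDAG records were 42.0% and 3.34%. Both groups helped to choose the records, so no test is given. Juvenile levels fell into a wide range: 36 records were at 1% of day 0 or less, 28 of the 57 were under 1 CPM, and the least detected had 6 counts over the 3 libraries. Of the 157, 71 were at 1% or less and 64 under 1 CPM, as were 3.44% and 2.96% of the 3112. In contrast, 9 of the 57 records kept at least 10% of day 0 in juveniles, as did 7 of the 157.

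Rank 27 kept the most, with 24.1, 26.1 and 25.9 CPM in juveniles, or 23.4% of its day 0 mean. Its values were 131, 135 and 58.9 CPM at day 0, 77.8, 62.6 and 59.3 at day 3, 51.8, 39.9 and 44.7 at day 5, and 49.2, 31.3 and 34.3 at day 7. At day 7 it kept 35.3% of day 0, also the highest of the 57, and all day 7 libraries lay above all juvenile ones, by 1.51-fold in the means.

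Rank 31, another of those 9, was close to its juvenile level at day 7. It had 106, 107 and 81.4 CPM at day 0, 55.6, 47.7 and 67.8 at day 3, 43.4, 32.7 and 41.6 at day 5, and 33.7, 22.3 and 23.6 at day 7, with 19.4, 21.1 and 20.05 in juveniles. All day 7 libraries were above all juvenile libraries, by 1.31-fold in the means. At day 5 it was 2.73-fold below day 0 (log2 fold change -1.45, SE 0.19, adjusted p = 0.001 by edgeR) and 2.15-fold above juveniles (log2 fold change 1.10, SE 0.19, adjusted p = 0.0031). Both calls held in all 21 alternatives.

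Whether several of the 57 records stem from 1 transcript cannot be read from the counts, but proportional ones were looked for. A pair of records was taken as proportional where the ratio of their CPM stayed within 10% of its median in all 12 trunk libraries, which held for 10 of 1596 pairs. Among the 57, the 10 pairs joined 16 records into 6 chains, the largest of 5 (ranks 8, 11, 14, 24 and 32). Ranks 12 and 13, and ranks 50 and 53, had CPM within 10% of each other in every trunk library. Rank 12 had 206, 214 and 215 CPM at day 0 and rank 13 had 204, 211 and 209. None of the 57 had the same counts as another of them in all libraries. Near-identical records of 1 gene and separate genes that move together cannot be told apart without their sequences, so 57 records need not be 57 genes.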

How the data were processed

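Poly(A) RNA was extracted with TRIzol and made into libraries with a TruSeq RNA kit, per the labels' protocols. The authors deposited raw read counts, 1 row per record and 1 column per library, and the submitters' processing notes name Bowtie2. The sources used here do not give its settings, how reads were counted, against which sequences, or where reads shared by similar records went. The kit does not mark strand, so overlapping antisense records cannot be told apart. CPM is count over the total of all rows of a library. Total counts limit precision mainly for juveniles, where members had few counts. Tests used edgeR 4.0.16 in R 4.3.3 (limma 3.58.1): filterByExpr (minimum count 10, minimum total 15), which kept 46736 records and at least 99.6% of counts, TMM factors of 0.893 to 1.12, and a robust quasi-likelihood F test fitted to all 15 libraries, with no covariate beside group (10 residual degrees of freedom). P-values were adjusted by Benjamini-Hochberg over all records and called under 0.05. Fold changes are on the TMM scale and levels in plain CPM. DESeq2 1.42.0 was an alternative. The fit was checked on simulated data.

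The members, comparison sets and tests were chosen with earlier results of these data known. The rule for single records took the 2 most abundant at day 0 and, of records at 100 CPM or more there, the 2 with the highest day 5 level relative to day 3 (ranks 19 and 28). Other ranks described were chosen after their values were seen. No column of other samples was present. No sequence or annotation was used.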

Additional observations from a re-analysis of the deposited data

How the results depend on the processing

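The counts of calls changed in size with the processing. Members lower at day 5 than at day 3, 0 as reported, numbered 1 with the 2 groups fitted alone, 2 with DESeq2, 3 without the 3 libraries that stood apart (day 0 replicate 3, day 3 replicate 3 and day 7 replicate 2, an alternative chosen after seeing the data) and 0 to 2 when single libraries were left out. Those lower at day 7 than at day 5, 28 as reported, numbered 8 with the 2 groups fitted alone and 19 to 31 with single libraries left out. Those lower at day 5 than at day 0, 36 as reported, numbered 23 without the low-count filter and 17 to 47 with single libraries left out. Those higher at day 5 than in juveniles numbered 51 to 57 with single libraries left out. Over all records, omissions of single libraries called 0 to 5, 140 to 383, 1483 to 2938 and 2817 to 6515 in these comparisons, in the order given. For day 5 against day 3, the counts over all records were 1 with the 2 groups fitted alone, 35 with DESeq2 and 111 without the 3 libraries. With the replicate number as a block the counts of members were 0, 33, 48 and 56. Over all records they were 3, 2159, 3929 and 6477 with the block, against 1, 243, 2638 and 5539 without it. Under the replicate block, edgeR also called rank 1 (adjusted p = 0.029) and rank 2 (adjusted p = 0.028) lower at day 5 than at day 0, and rank 19 lower at day 7 than at day 5 (adjusted p = 0.030). Same-numbered libraries did not deviate together for all 3 numbers in any of these comparisons (lowest correlations -0.0707, -0.0645, -0.0354 and -0.0436). The highest correlations were 0.226, 0.229, 0.179 and 0.0264, so libraries of some numbers did deviate together. The main fit takes the samples to share only a number. Libraries of all 3 numbers deviated together between day 3 and day 0 (0.174 to 0.515), a pair of groups that is not tested here. Between day 7 and day 3 the highest correlation was 0.579. All these libraries enter the estimate of the spread.

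Choosing the members again gave 52 to 105 with single libraries left out, with 22 to 84 at 50% of day 0 or less by day 5. It gave 44 without the 3 libraries that stood apart, of which 38 were among the 57, and 48 with CPM over TMM-scaled library sizes, of which 43 were. The summed share at day 5 was 0.222% without the 10 most abundant members, and 0.967% to 1.18% with single day 5 libraries left out. For rank 19 the log2 fold change of day 5 against day 3, -0.15 as reported, was 0.14 under the replicate block, 0.76 with the 3 libraries omitted and -0.44 to 0.75 over omissions of 1 library, positive for day 3 replicate 3 and day 5 replicate 1 (0.11). For rank 28 it was -0.36 to 0.071, positive for day 3 replicate 1. The causes were not tested. Without TMM factors the median log2 fold change of all records from day 0 to day 5 was 0.12 in place of -0.02, and 4008 records were called higher and 1397 lower, against 1510 and 2638. Against juveniles the median was -0.18 in place of -0.04, with 3957 records higher and 7639 lower, against 5539 and 3515.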
